A study of Mus musculus with 24 samples.

Results

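Complement components and receptors were followed in microglia, the resident macrophages of the brain, through 9 genes chosen by name: C1qa, C1qb, C1qc, C3, C4b, C3ar1, C5ar1, Itgam and Itgb2. All 9 were found among the 35519 genes to which transcripts in the files could be assigned, and all 9 passed the filter on low counts that left 9803 genes for testing. The libraries came from C57BL/6 mice and fall into 8 groups: female and male NL4-/- (neuroligin-4 knockout) and female and male WT, each after phagocytosis (4 libraries a group) and as controls (2 libraries a group). Cells were sorted from whole brain as Ly6C-, CD11b+ and Fcrls+, and 1000 cells were lysed for each Smart-Seq2 library, a full-length method. The labels do not give the age of the mice, which particle the phagocytosis groups had ingested, or where. The sort bears on the genes themselves, because CD11b is the protein of Itgam: every cell had been selected for it, and Itgb2 encodes its partner chain.

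Complement is a cascade of plasma and tissue proteins that tags particles, cells and synapses for uptake. C1q, built of A, B and C chains, recognises the target and starts the classical pathway; C4 and then C3 are cleaved and their larger fragments are bound to the target surface. Phagocytes read the bound C3 fragment through complement receptor 3, the dimer of the Itgam and Itgb2 chains, and sense the small released fragments C3a and C5a through the receptors C3aR1 and C5aR1. In the brain, microglia are a main source of C1q, and C1q, C3 and complement receptor 3 are known for their part in the removal of synapses during development.

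The libraries held 421107 to 1013797 assigned reads, so that 10 CPM (read counts scaled to a common library size) stood for 4.21 reads in the shallowest library and 10.1 reads in the deepest. Markers of the labelled cell type were present in every library: the 12 microglial markers summed to 20218 to 47148 CPM after phagocytosis and to 39295 to 51627 CPM in controls, and 7 of the 12 fell and 0 rose (edgeR, adjusted p under 0.05). The sum of 12 markers of border-associated macrophages was 1427 to 2318 CPM after phagocytosis and 964 to 1654 CPM in controls, and 7 of the 12 rose. All 12 had a higher mean after phagocytosis, Mrc1 and Lyve1 among them from low levels. Mrc1 averaged 9.52 ± 5.91 CPM after phagocytosis and 3.62 ± 3.04 CPM in controls, and Lyve1 4.78 ± 6.34 CPM and 0.281 ± 0.795 CPM (SD, n = 16 phagocytosis and n = 8 control libraries). The monocyte markers Ly6c2 and Ccr2 averaged 3.34 ± 5.26 and 4.93 ± 4.0 CPM after phagocytosis, against 1.23 ± 1.63 and 2.21 ± 1.90 CPM in controls (SD, n = 16 and n = 8). Sums over 8 markers each were 18.1 to 172 CPM after phagocytosis and 19.1 to 74.2 CPM in controls for monocytes, 285 to 601 and 466 to 639 CPM for neutrophils, and 168 to 426 and 284 to 566 CPM for lymphocytes. They were 72.3 to 142 CPM after phagocytosis and 57.5 to 157 CPM in controls for astrocytes, 173 to 372 and 137 to 192 CPM for oligodendrocytes, 42.5 to 127 and 19.6 to 51.2 CPM for neurons, and 26.9 to 138 and 26.4 to 45.3 CPM for endothelium. Of these lists 2 markers of astrocytes and 1 each of monocytes, oligodendrocytes and neurons rose, and 1 each of astrocytes, neutrophils and lymphocytes fell. In bulk libraries fewer cells of a type and less RNA per cell cannot be told apart, and the part of these markers in the results below was not tested. Genes built of the mouse major satellite repeat took over 20% of the reads in 3 control libraries, with 22.2% in female NL4-/- control 1, 21.5% in male NL4-/- control 1 and 23.3% in male WT control 2, against 1.52% to 16.3% in phagocytosis libraries.

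The regions upstream of 4 of the genes are printed because they hold both outcomes in these data: C3ar1 rose after phagocytosis and C3 was called higher from few reads, whereas no change of C1qb and Itgam passed the test. Each is the 250 bases before the RefSeq start of the gene in GRCm38.p6, 5′ to 3′ on the gene's own strand: chr17:57228137-57228386 for C3, chr6:122856158-122856407 for C3ar1 and chr4:136886201-136886450 for C1qb, all on the minus strand, and chr7:128062390-128062639 on the plus strand for Itgam. Capitals mark matches, on either strand, to 4 motifs searched for. The core read by PU.1, a transcription factor of macrophages, was spelled GAGGAA. The AP-1 motif was spelled TGANTCA, with any base at N. The NF-kB motif is given by name and starts with 3 G and ends with 3 T and 2 C around 2 free bases. The TATA box was spelled TATAAA.
C3: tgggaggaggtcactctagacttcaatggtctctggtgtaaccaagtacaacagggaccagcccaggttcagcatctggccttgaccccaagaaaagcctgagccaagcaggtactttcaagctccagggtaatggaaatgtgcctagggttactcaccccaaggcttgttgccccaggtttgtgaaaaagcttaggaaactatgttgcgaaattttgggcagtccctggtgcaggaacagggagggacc
C3ar1: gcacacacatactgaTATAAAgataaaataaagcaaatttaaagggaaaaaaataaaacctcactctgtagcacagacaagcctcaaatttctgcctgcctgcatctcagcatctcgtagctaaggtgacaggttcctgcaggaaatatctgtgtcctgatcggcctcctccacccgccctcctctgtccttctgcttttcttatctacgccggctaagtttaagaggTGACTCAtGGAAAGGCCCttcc
C1qb: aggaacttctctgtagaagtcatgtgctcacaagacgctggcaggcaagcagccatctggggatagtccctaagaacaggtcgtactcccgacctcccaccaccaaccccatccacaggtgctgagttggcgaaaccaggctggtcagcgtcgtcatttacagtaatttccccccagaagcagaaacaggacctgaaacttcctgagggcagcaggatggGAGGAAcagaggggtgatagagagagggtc
Itgam: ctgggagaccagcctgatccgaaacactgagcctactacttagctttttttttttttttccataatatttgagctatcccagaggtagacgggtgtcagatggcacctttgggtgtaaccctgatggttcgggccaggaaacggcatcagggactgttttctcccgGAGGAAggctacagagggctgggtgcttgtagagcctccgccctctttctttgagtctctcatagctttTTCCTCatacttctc
The C3ar1 window held an AP-1 match at -22 to -16 and an NF-kB match at -14 to -5 from the start, beside a TATA box match far upstream at -235 to -230, and no 2 of these matches overlap. A PU.1 core stood at -30 to -25 in C1qb, and the Itgam window held 2 of them, at -84 to -79 and -15 to -10. The C3 window held none of the 4. Among 32851 such windows, 23.3% held the PU.1 core, 6.75% the AP-1 letters, 1.41% the NF-kB letters and 12.4% the TATA box letters, so each match is a description and not a site. The RefSeq table held windows for 6 of the 9 genes, C1qc and C5ar1 among them, and both of these genes rose. Their windows are not printed: that of C1qc held a PU.1 core at -193 to -188, and that of C5ar1 held none of the 4 motifs. The matches therefore do not sort the genes by outcome. C1qa, C4b and Itgb2 are named only.

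Per length, in TPM (transcripts scaled to a common total), the 9 genes spanned the range from some of the most abundant messages to near the limit of detection. On TPM the median gene had a log2 ratio, phagocytosis over control, of 0.35, against -0.02 on CPM. TPM therefore serve here to compare genes, and the states are compared on CPM below. C1qb led with 6011 ± 1484 TPM after phagocytosis and 5222 ± 2007 TPM in controls, followed by C1qa with 4677 ± 1217 and 4274 ± 1678 TPM (SD, n = 16 phagocytosis and n = 8 control libraries, here and in the rest of this paragraph). C1qc stood at 2097 ± 816 TPM after phagocytosis and 909.8 ± 275 TPM in controls. The 3 chains share 1 locus on the minus strand of chromosome 4, from 136880129 to 136898803 (GRCm38), 18.7 kb in all. C5ar1 had 437 ± 168 TPM after phagocytosis and 214 ± 93.8 TPM in controls, Itgb2 281 ± 65.7 and 209 ± 73.1 TPM, C3ar1 252 ± 88.7 and 86.3 ± 31.3 TPM, and Itgam 189 ± 58.6 and 211 ± 96.6 TPM. In controls the levels of C5ar1, Itgam and Itgb2 lay within 1 SD of each other, as did those of C1qb and C1qa, and after phagocytosis those of Itgb2 and C3ar1. C4b, at 8.08 ± 5.41 TPM after phagocytosis and 4.81 ± 2.95 TPM in controls, and C3, at 1.74 ± 1.74 and 0.147 ± 0.144 TPM, came last.

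Averaging the state difference over both sexes and both genotypes asks which complement genes differ between phagocytosis and control at large. The receptor genes C3ar1 (2.13-fold) and C5ar1 (1.62-fold) and the C1q chain gene C1qc (1.87-fold) rose, and none of the 9 fell. C3 also passed, from few reads, which makes 4 of 9 calls. It reached the filter on low counts only through phagocytosis libraries, since no control had more than 1 read, so its call is tied to that filter and is not counted as support. Among all 9803 genes tested 13.6% passed, 8.41% higher and 5.18% lower, and the median log2 fold change was 0.07 over the 9 genes and -0.01 over all genes. The genes that did not pass were C1qa, C1qb, C4b, Itgam and Itgb2. The calls of C3ar1, C5ar1 and C1qc stood in every fit that left out 1 library and under DESeq2. That of C3 stood as well, but this too is not counted as support. Without the 3 control libraries rich in satellite reads C3ar1 still passed (adjusted p = 0.000196), whereas C1qc (log2 fold change 1.03, adjusted p = 0.0517), C5ar1 (0.64, adjusted p = 0.0538) and C3 (2.71, adjusted p = 0.137) did not; 410 genes passed in that fit, against 1332 with all libraries.

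**Figure D1:**
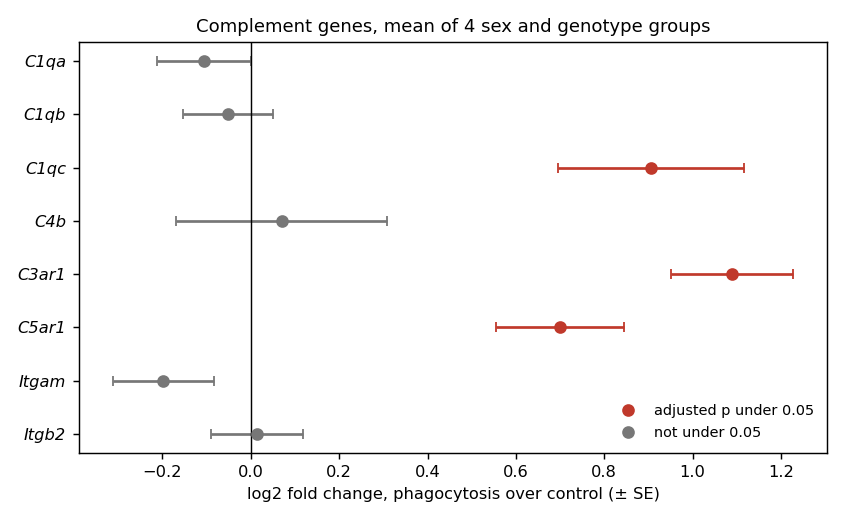
Log2 fold change of 8 complement genes, phagocytosis over control, averaged over both sexes and both genotypes. Points are edgeR estimates, bars are 1 SE, and C3 is left out because its fitted value depends on the prior count. C3ar1 at 1.09, C1qc at 0.91 and C5ar1 at 0.70 lie to the right, and the other 5 genes lie close to 0.

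C3ar1, the receptor for C3a (gene on chromosome 6, 122847138 to 122856161, minus strand), gave the clearest separation of the 9 genes. Female NL4-/- phagocytosis libraries had 1175, 677, 718 and 717 CPM, against 321 and 384 CPM in female NL4-/- controls. Female WT phagocytosis libraries had 940.3, 687, 758 and 919 CPM, against 475 and 439 CPM in female WT controls. In both sets every phagocytosis library lay above both controls. Male NL4-/- phagocytosis libraries had 1070.4, 818, 555 and 899 CPM, against 335 and 299.7 CPM in male NL4-/- controls, and male WT phagocytosis libraries had 719, 813, 1136 and 648 CPM, against 348 and 537 CPM in male WT controls. All 16 phagocytosis libraries, from 555 to 1175 CPM, were thus above the highest of the 8 controls at 537 CPM. The share of all tested genes that separate in this way is not given here, nor for the separations named in later comparisons. The log2 fold change was 1.09 ± 0.14 (SE; edgeR, adjusted p = 2.51e-06), and between 1.03 and 1.20 when each library was left out in turn.

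C5ar1, the receptor for C5a (chromosome 7, 16246743 to 16259540, minus strand), rose less and overlapped more. Female NL4-/- phagocytosis libraries had 1127, 681, 835 and 773 CPM, against 379.8 and 508 CPM in female NL4-/- controls. Female WT phagocytosis libraries had 1269, 781, 548 and 1149.5 CPM, against 653 and 522 CPM in female WT controls. All phagocytosis libraries but 1 in these sets lay above both of their controls. Male NL4-/- phagocytosis libraries had 1032, 766, 791 and 1271 CPM, against 352 and 458 CPM in male NL4-/- controls. In male WT mice the groups overlapped, with 804, 571, 918 and 608 CPM after phagocytosis, against 709 and 811 CPM in controls. The log2 fold change over the 4 groups was 0.70 ± 0.15 (SE; edgeR, adjusted p = 0.00164), and 7 of 16 phagocytosis libraries were above the highest control.

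C3, whose cleavage gives both C3a and the surface tag (chromosome 17, 57203970 to 57228136, minus strand), was scarce. The phagocytosis libraries held 4, 9, 3 and 2 reads in female NL4-/-, 3, 0, 4 and 6 in female WT, 11, 0, 7 and 2 in male NL4-/- and 5, 6, 3 and 13 in male WT mice. The controls held 0 and 0 reads in female NL4-/-, 1 and 1 in female WT, 1 and 1 in male NL4-/- and 1 and 0 in male WT mice. No control had more than 1 read, and 2 phagocytosis libraries had none. Pooled, these are 78 reads after phagocytosis and 5 in controls, a ratio of 6.72 at equal depth (exact 95% interval for counting error only, 2.76 to 21.3), and edgeR gave adjusted p = 0.0191. That p belongs to a gene that entered testing only through its phagocytosis libraries and had to differ, and with phagocytosis libraries 3 and 4 of each group alone C3 did not pass the filter. Within female NL4-/- mice, where controls had no read, the C3 ratio was 2.5 against a floor of 3 reads over the control group. The exact lower 95% limit, for counting error only, was 1.83. With phagocytosis libraries 1 and 2 of each group alone the call was lost (adjusted p = 0.0703).

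**Figure D2:**
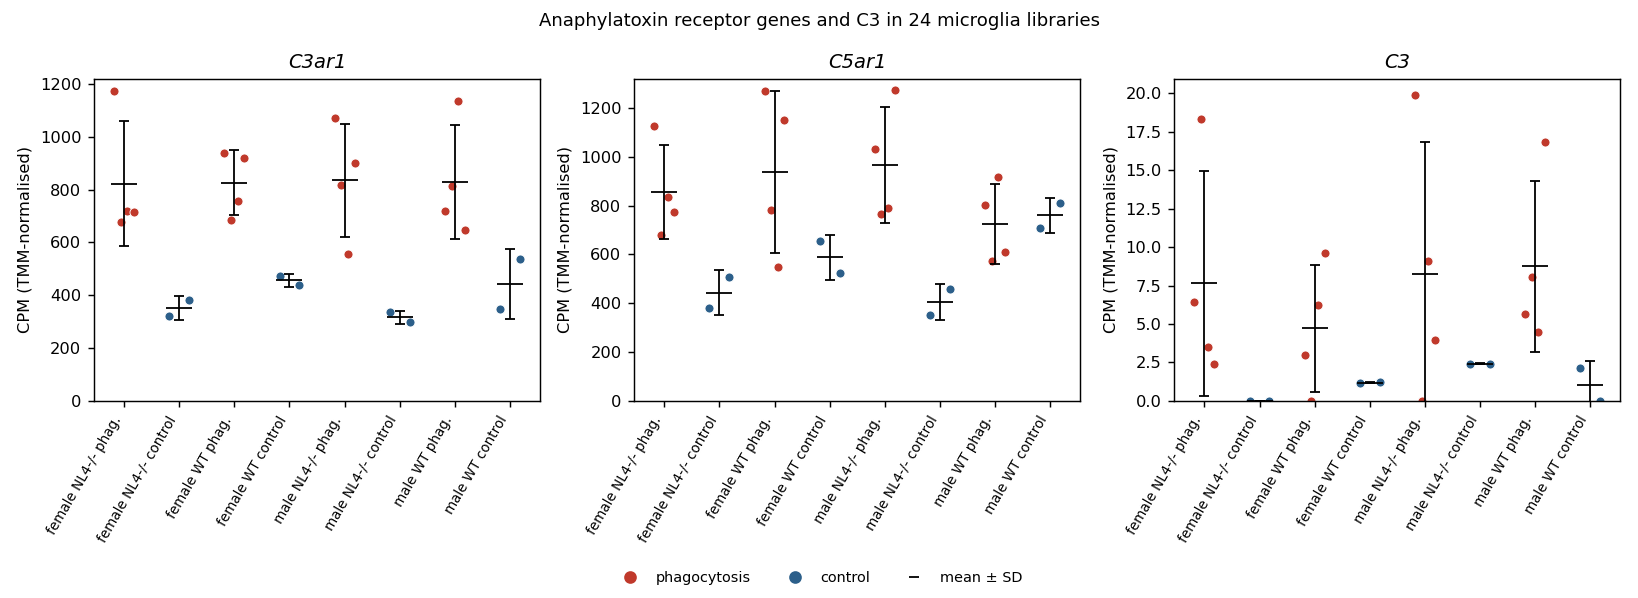
Level of C3ar1, C5ar1 and C3 in each of 24 libraries, in TMM-normalised CPM on axes that start at 0. Points are libraries, red after phagocytosis and blue in controls, and black marks are the mean ± SD of each group (n = 4 and n = 2), cut at 0 for C3. For C3ar1 the phagocytosis libraries (555 to 1175 CPM) lie above all controls (299.7 to 537 CPM), and for C3 no control is above 2.43 CPM.

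The 3 C1q chain genes did not move alike. C1qa (chromosome 4, 136895917 to 136898803) averaged 4923 ± 702 CPM after phagocytosis and 5304 ± 661 CPM in controls, and C1qb (chromosome 4, 136880129 to 136886187) 7082 ± 909 and 7349 ± 848 CPM (SD, n = 16 and n = 8). Their log2 fold changes of -0.11 ± 0.11 and -0.05 ± 0.10 did not pass (SE; edgeR, adjusted p = 0.579 and 0.809). C1qc, which encodes the C chain (chromosome 4, 136889804 to 136893065), averaged 2595 ± 1015 CPM after phagocytosis and 1354 ± 203 CPM in controls, a log2 fold change of 0.91 ± 0.21 (SE; edgeR, adjusted p = 0.00637). The ratio of C1qc to C1qa counts was 0.541 ± 0.224 after phagocytosis and 0.262 ± 0.0714 in controls, while the ratio of C1qb to C1qa was 1.44 ± 0.0644 and 1.39 ± 0.0624 (SD, n = 16 and n = 8). Together the chains took 1.46% ± 0.177 of reads after phagocytosis and 1.35% ± 0.208 in controls.

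C1qc varied widely between libraries of some phagocytosis groups. Female WT phagocytosis libraries were uniformly high, at 3259, 3896, 3976 and 3417 CPM, against 1298 and 1131 CPM in female WT controls. Female NL4-/- phagocytosis libraries split, at 3530.3, 3520.3, 1264 and 1304 CPM in libraries 1 to 4, against 1506 and 1433 CPM in female NL4-/- controls. Libraries 1 and 2 were thus as high as the female WT ones, and libraries 3 and 4 were below both of their own controls. Male NL4-/- phagocytosis libraries had 1641, 2247, 3637 and 1202 CPM, against 1659.9 and 1021 CPM in male NL4-/- controls. Male WT phagocytosis libraries had 2211, 1459, 2349 and 2603 CPM, against 1383 and 1402 CPM in male WT controls. In all, 11 of 16 phagocytosis libraries were above the highest control. The coefficient of variation, over all groups of a state together, was 39.1% in phagocytosis libraries and 15.0% in controls for C1qc, and 14.3% and 12.5% for C1qa.

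The microglial marker sum differed between some of the same libraries. In female NL4-/- mice it was 24765 and 25840 CPM in phagocytosis libraries 1 and 2, and 43297 and 45116 CPM in libraries 3 and 4, where C1qc was low. The sum for border-associated macrophages was 2023 and 2076 CPM in libraries 1 and 2, and 1441 and 1427 CPM in libraries 3 and 4. In female WT mice phagocytosis libraries 2 and 3, with microglial sums of 25885 and 28687 CPM, had more C1qc than libraries 1 and 4, with 34904 and 36900.5 CPM. In male NL4-/- mice phagocytosis library 4 had the highest microglial sum, 40199 CPM, and the lowest C1qc, 1202 CPM. Library 3 there had the next highest sum, 34953 CPM, and the highest C1qc, 3637 CPM. In male WT mice phagocytosis library 4 had the highest microglial sum of any phagocytosis library, 47148 CPM, and the highest C1qc of its group. The part of these differences in the C1qc result was not tested. With phagocytosis libraries 3 and 4 of each group alone the C1qc log2 fold change over the 4 groups was 0.78 (adjusted p = 0.0157).

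**Figure D3:**
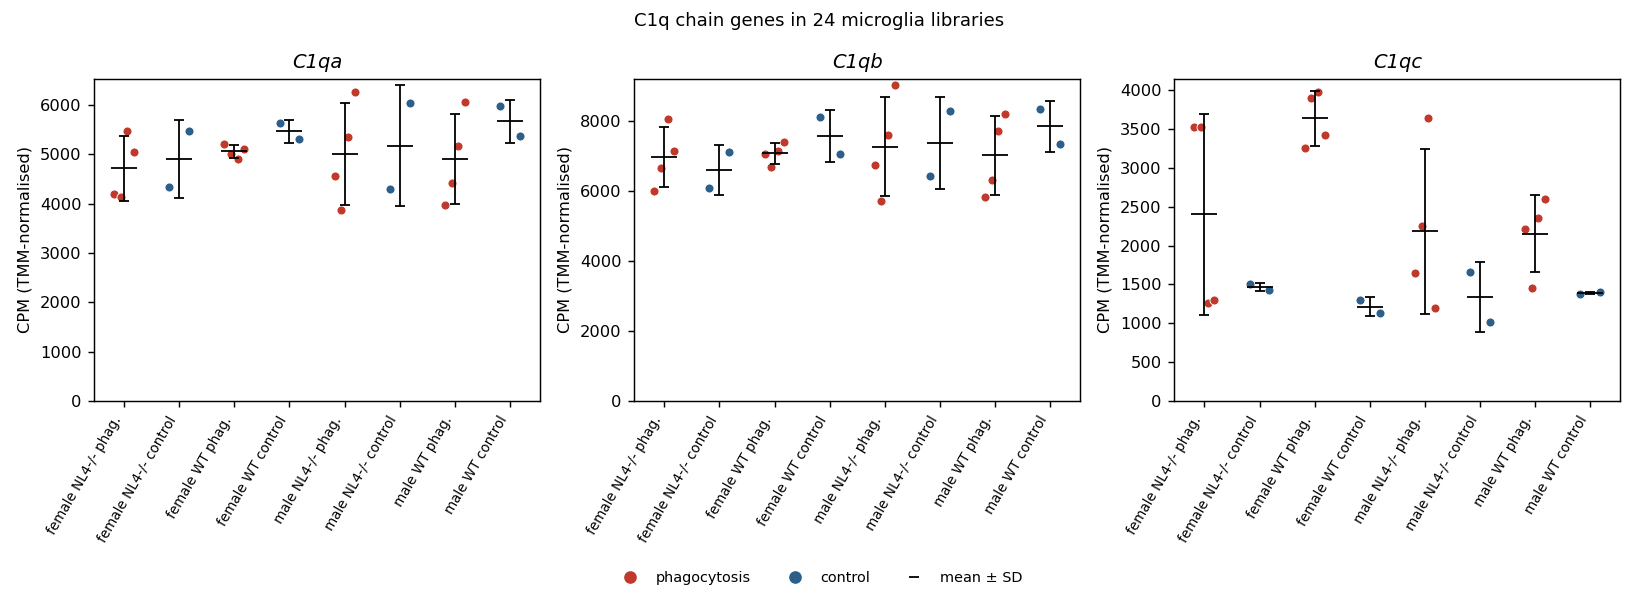
Level of C1qa, C1qb and C1qc in each of 24 libraries, in TMM-normalised CPM on axes that start at 0. Points are libraries, red after phagocytosis and blue in controls, and black marks are the mean ± SD of each group (n = 4 and n = 2). C1qa and C1qb overlap between states, and C1qc reaches 3976 CPM after phagocytosis against at most 1659.9 CPM in controls.

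The genes most like each member in pattern were listed next. Likeness was measured as the root-mean-square (RMS) difference of log2 CPM over the 24 libraries, each gene centred on its own mean, and the 3 nearest genes of at least 50 CPM were taken. C1qa and C1qb were nearest to each other of all genes, with an RMS difference of 0.0663, but C1qc stood at place 8157 of 9802 from C1qa and at place 8088 from C1qb, and, counted from C1qc, C1qa stood at place 3366 and C1qb at place 2964. Nearest to C1qc were Lamp1 (RMS 0.184), which encodes a lysosomal membrane protein, Spi1 (0.276), which encodes PU.1, and Clptm1 (0.311). Nearest to both C1qa and C1qb were the lysosomal genes Psap and Ctsa, and then Cnpy3. These values describe 24 libraries made from the same sort, which differ in depth.

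**Figure D4:**
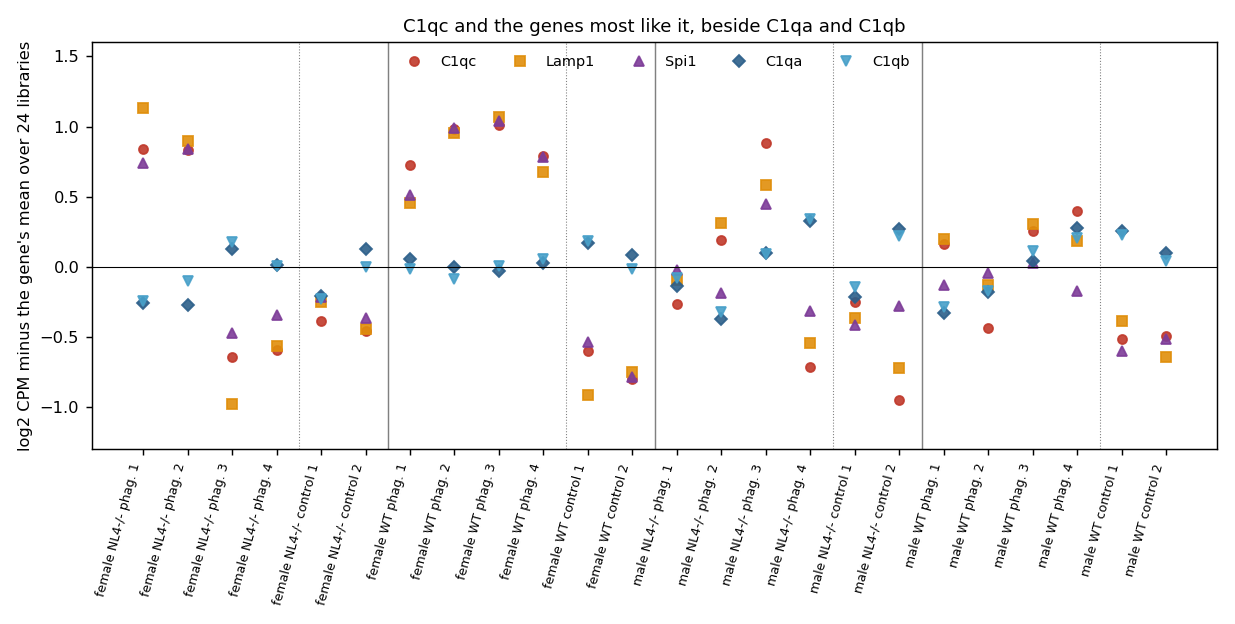
Log2 CPM of C1qc, Lamp1, Spi1, C1qa and C1qb in each of 24 libraries, each gene minus its own mean over all libraries. Points are libraries, solid lines divide the sex and genotype sets, and dotted lines divide phagocytosis on the left from control on the right within a set. C1qc, Lamp1 and Spi1 are high in female NL4-/- phagocytosis libraries 1 and 2 and low in 3 and 4. C1qa and C1qb differ less between these libraries and are lower in 1 and 2 than in 3 and 4.

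For the receptors, the gene nearest to C3ar1 was Ctsb (RMS 0.23), which encodes the lysosomal protease cathepsin B, followed by Cndp2 and Slc15a3. C5ar1 stood at place 17 of 9802 from C3ar1 (RMS 0.348), and C3ar1 at place 25 from C5ar1, whose nearest genes were Slc35f6, Actg1 and Bcl2l1. Itgb2 was nearest to Adam15, Slc39a7 and P2ry6, and Itgam to Sipa1l2, Hcfc1 and Mms19. Itgb2 stood at place 104 from Itgam (RMS 0.277), its partner chain, but Itgam at place 505 from Itgb2. C1qb (place 31, RMS 0.198) and C1qa (place 74, RMS 0.215) were nearer to Itgb2. For the scarce genes the nearest were further off: Mtx1, Slc19a1 and Pigt for C4b (RMS 0.393 for the first), and Dot1l, Apoe and Cyb5r3 for C3 (0.62 for the first).

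Complement receptor 3 and C4b showed no change that passed. Itgam (chromosome 7, 128062640 to 128118491, plus strand) averaged 751 ± 137 CPM after phagocytosis and 863 ± 116 CPM in controls, a log2 fold change of -0.20 ± 0.11 (SE; edgeR, adjusted p = 0.27). Itgb2 (chromosome 10, 77530252 to 77565708, plus strand) averaged 827 ± 115 and 818 ± 99.1 CPM, a log2 fold change of 0.01 ± 0.10 (adjusted p = 0.961). Because all cells were gated on CD11b, a difference in Itgam outside the gate could not be seen. C4b, whose protein is the next to be cleaved after C1q binds (chromosome 17, 34728380 to 34743882, minus strand), averaged 35.3 ± 13.2 CPM after phagocytosis and 35.0 ± 16.8 CPM in controls, a log2 fold change of 0.07 ± 0.24 (adjusted p = 0.901; SD, n = 16 and n = 8 for all 3 genes). Its near-identical neighbour C4a is not analysed here, so reads of either gene could stand under C4b.

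**Figure D5:**
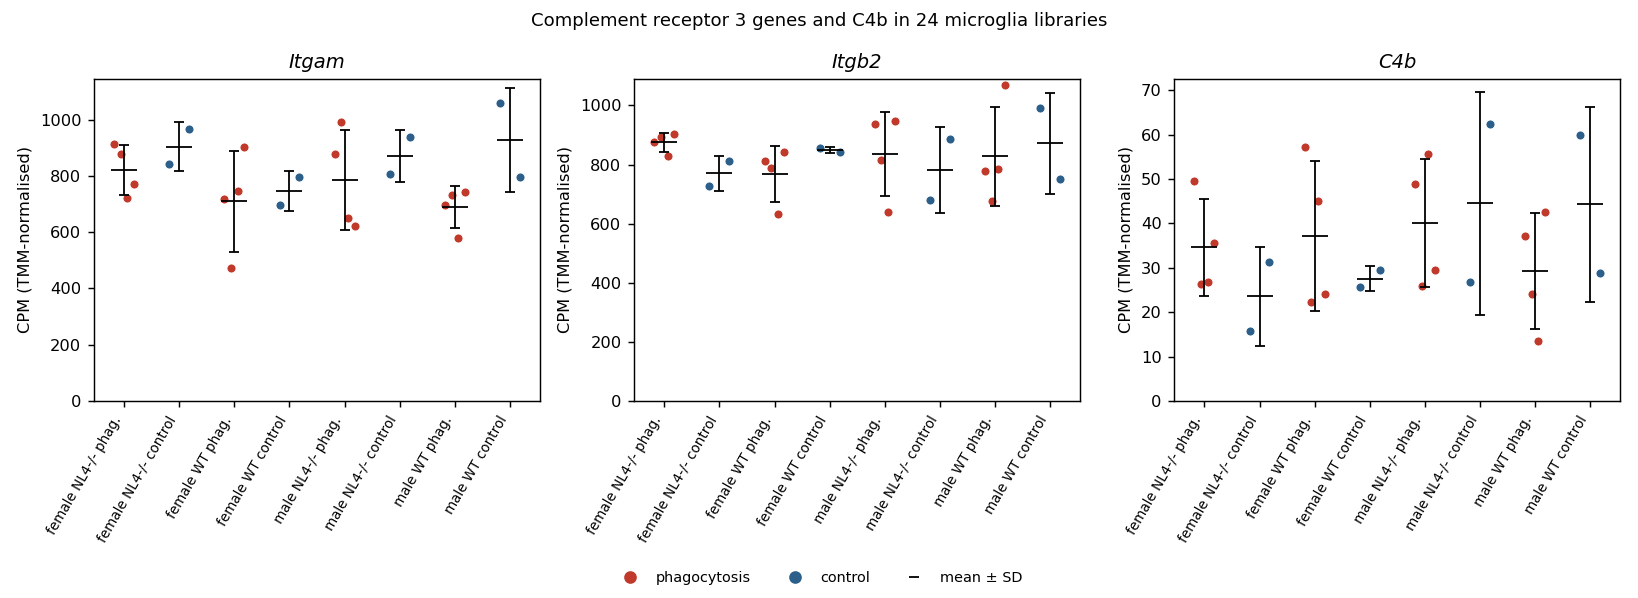
Level of Itgam, Itgb2 and C4b in each of 24 libraries, in TMM-normalised CPM on axes that start at 0. Points are libraries, red after phagocytosis and blue in controls, and black marks are the mean ± SD of each group (n = 4 and n = 2). The states overlap for all 3 genes: Itgam spans 472 to 992 CPM after phagocytosis and 697 to 1059 CPM in controls.

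Within single sex and genotype groups, 4 phagocytosis libraries against 2 controls, C3ar1 and C5ar1 were the complement genes called. C3ar1 rose in female NL4-/- mice (log2 fold change 1.22 ± 0.28, adjusted p = 0.0355) and in male NL4-/- mice (1.40 ± 0.28, adjusted p = 0.0121), and C5ar1 in male NL4-/- mice (1.25 ± 0.30, adjusted p = 0.0458; SE, edgeR). Over all genes 0.459% passed in female NL4-/- and 0.602% in male NL4-/- mice (0.408% and 0.5% higher, 0.051% and 0.102% lower). None of the 9 passed in female WT mice, where 0.581% of genes did (0.541% higher, 0.0408% lower), or in male WT mice, where 0.326% did (0.316% higher, 0.0102% lower). At an unadjusted p under 0.05 there were 3 of 9 in female WT and 1 of 9 in male WT mice, against 12.1% and 8.2% of all genes. DESeq2 called 2 and 1 of the 9, and 217 and 85 of all 9803 genes. In female WT mice C3ar1 had a log2 fold change of 0.85 ± 0.27 (adjusted p = 0.163) and C1qc 1.58 ± 0.44 (adjusted p = 0.114), and in male WT mice C3ar1 had 0.90 ± 0.27 (adjusted p = 0.264).

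These calls rest on few libraries. The C3ar1 call in female NL4-/- mice was lost without control 1 (adjusted p = 0.802), control 2 (0.145) or phagocytosis 1 (0.17), and that in male NL4-/- mice without control 1 (0.196) or control 2 (0.298). The C5ar1 call in male NL4-/- mice was lost without either of its controls (adjusted p = 0.502 and 0.276) and without phagocytosis 1 (0.1) or 4 (0.121). In the fit that all libraries share, it was also lost without female WT control 1 (0.0503), male WT control 1 (0.0595) or male WT control 2 (0.0538). What in the fit led to these last losses was not tested. The difference between genotypes in the response to phagocytosis was tested directly and did not pass for any of the 9 genes: in males the C5ar1 response differed by 1.32 ± 0.40 on the log2 scale between NL4-/- and WT (unadjusted p = 0.00275, adjusted p = 1.00), and by 0.79 ± 0.28 as the mean of both sexes (unadjusted p = 0.00901, adjusted p = 1.00).

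NL4-/- was compared with WT within each sex and state and as the mean of both sexes. None of the 9 genes passed in any of these 6 comparisons, in each of which 0.0% of all genes passed; 210 to 510 genes had an unadjusted p under 0.05, and DESeq2 called 0 of the 9. Among the members an unadjusted p under 0.05 was found for C5ar1 alone, in controls. C5ar1 averaged 424 ± 71.5 CPM in NL4-/- controls and 674 ± 121 CPM in WT controls (SD, n = 4 each, both sexes), a log2 fold change of -0.65 ± 0.23 (SE; edgeR, unadjusted p = 0.00868, adjusted p = 1.00), and no NL4-/- control was above the lowest WT control. In males alone it was -0.91 ± 0.33 (unadjusted p = 0.0104). After phagocytosis C5ar1 averaged 909.6 ± 208 CPM in NL4-/- and 831 ± 268 CPM in WT libraries, and C3ar1 829 ± 209 and 827 ± 163 CPM (SD, n = 8 each). The C3ar1 log2 fold change between genotypes was then 0.00 ± 0.15 (SE). For C1qc, which averaged 2293 ± 1102 CPM in NL4-/- and 2896 ± 885 CPM in WT phagocytosis libraries, it was -0.29 ± 0.23 (adjusted p = 0.973), and 0.04 with phagocytosis libraries 1 and 2 alone.

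Females were compared with males in the same way. Again 0 of the 9 genes passed in any of 6 comparisons, by edgeR or DESeq2, in which 0.0408% of all genes passed after phagocytosis and 0.0306% in controls (means of both genotypes), 0.0102% and 0.0204% in NL4-/- and WT phagocytosis libraries, and 0.0102% and 0.0% in NL4-/- and WT controls. The sole member at an unadjusted p under 0.05 was C1qc in WT phagocytosis libraries, where 7.55% of all genes reached it. There all 4 female libraries (3259 to 3976 CPM) were above all 4 male libraries (1459 to 2603 CPM) for C1qc. The log2 fold change, female over male, was 0.75 ± 0.33 (SE; edgeR, unadjusted p = 0.0336, adjusted p = 0.63). Over both genotypes C1qc averaged 3021 ± 1098 CPM in female and 2169 ± 766 CPM in male phagocytosis libraries (SD, n = 8 each), a log2 fold change of 0.45 ± 0.23 (adjusted p = 1.00), which was -0.17 with phagocytosis libraries 3 and 4 alone. The 4 interactions of state with genotype or sex called 0 of the 9 genes and 0.0% of all genes; 190 to 276 genes had an unadjusted p under 0.05, and DESeq2 called 0 of the 9.

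Beyond these 9, 48 other complement genes were listed, covering initiators, proteases, terminal components, regulators and further receptors. Transcripts of 47 were in the files, 28 averaged under 1 CPM and 14 passed the filter on low counts. Of the 14, in phagocytosis against control, 1 rose and 12 did not pass. The median log2 fold change of the 14 was 0.56, against -0.01 over all genes. A gene with few reads can pass the filter through the group where it is high, so this median is not counted as support. Itgax, the chain that pairs with Itgb2 in complement receptor 4, rose to 18.6 ± 8.52 CPM after phagocytosis, against 9.32 ± 7.17 CPM in controls (SD, n = 16 and n = 8). Its log2 fold change was 1.12 ± 0.34 (SE; edgeR, adjusted p = 0.0241). The call was lost without female WT control 1 (adjusted p = 0.0616), male WT control 1 (0.062) or male NL4-/- control 2 (0.0707). It was also lost with the replicate block (0.0539), without the satellite-rich controls (0.0583) and with phagocytosis libraries 3 and 4 alone (0.063).

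The 6 most abundant of the other genes had no change that passed. Lrp1, which encodes a scavenger receptor, averaged 1065 ± 113 CPM after phagocytosis and 1054 ± 219 CPM in controls, and its partner at the cell surface in binding C1q-tagged cells, Calr (calreticulin), 969 ± 173 and 871 ± 118 CPM. C1qbp, named as a binder of C1q heads, averaged 146 ± 36.7 CPM after phagocytosis and 116 ± 33.7 CPM in controls, and the membrane regulator Cr1l 74.3 ± 17.2 and 94.7 ± 18.2 CPM. The collectin gene Colec12 had 23.8 ± 7.41 CPM after phagocytosis and 36.6 ± 14.2 CPM in controls, and clusterin (Clu), a fluid-phase inhibitor of the terminal complex, 32.4 ± 47.2 and 15.9 ± 19.6 CPM (SD, n = 16 and n = 8). Adjusted p ran from 0.0745 for Colec12 to 0.896 for Lrp1 (edgeR). Other settings gave calls for 3 of them: Cr1l, lower, with the replicate block (adjusted p = 0.036) and with phagocytosis libraries 1 and 2 (0.0277); C1qbp, higher, with phagocytosis libraries 1 and 2 (0.0325); and Colec12, lower, without female NL4-/- control 2 (0.0471) or male WT phagocytosis 3 (0.0329).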

How the data were processed

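RNA was measured in 24 microglia libraries. Per the file headers, the authors deposited an expected count (reads divided among the transcripts that share them), an effective length and TPM for each transcript of each library. The quantifier's version, index and genome build: not given in the sources used here. Of 116945 transcripts, 116023 were assigned to genes by their identifiers in GENCODE vM21 (GRCm38), and the 922 others held at most 0.379% of reads. Deposited TPM were summed per gene to compare levels between genes. Expected counts were summed per gene, rounded and tested with edgeR 4.0.16 (R 4.3.3): TMM, a filter on low counts (minimum 10), 8 group means over all 24 libraries, the quasi-likelihood F test and Benjamini-Hochberg adjustment over 9803 genes, with 0.05 as the threshold. CPM are TMM-normalised. The common dispersion was 0.0812. The procedure was tested on simulated data.

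Biological replicates are stated by the submitters, 5 for a phagocytosis group, of which 4 are analysed here. Alternatives were DESeq2 1.42.0, its size factors, no filter, length-scaled counts, a replicate block, only the 2 groups compared, TPM and leaving out each library. Leaving out the 3 control libraries over 20% satellite reads, and using phagocytosis libraries 1 and 2 or 3 and 4 alone, were chosen after seeing the data. Members and lists were chosen with earlier results of these data known. The named genes are the 9 members, every other listed complement gene that passed in phagocytosis against control, the 6 others with the highest mean CPM, and the 3 genes nearest to each member in pattern. C5ar2 lies outside this rule and was named after its values were seen. Counts come from amplified reads without molecular identifiers, so intervals and floors cover counting error only. Reads carry no strand, so genes that overlap antisense genes cannot be told apart from them. Nlgn4l is not analysed here, and 1 of the other listed complement genes is not reported here.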

Additional observations from a re-analysis of the deposited data

Results flagged for a closer look

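Within the groups of 4 phagocytosis libraries, 1 of 36 combinations of gene and group held a library far from the rest: C3ar1 at 1175 CPM in female NL4-/- phagocytosis 1, where the other 3 libraries had 677 to 718 CPM. Chance gives such a gap in about 1 in 20 groups.

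C4b was higher after phagocytosis by a mean of 11.0 CPM in female NL4-/- mice and differed by -14.9 CPM in male WT mice, and Itgb2 differed by 105 CPM in female NL4-/- and by -80.6 CPM in female WT mice, phagocytosis minus control. In each of these pairs every phagocytosis library of one set lay above its control mean and every one of the other set below it. For C4b this difference was not tested; for Itgb2 the interaction of genotype with state in females was 0.33 ± 0.30 on the log2 scale (SE; edgeR, unadjusted p = 0.277, adjusted p = 1.00).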

How the results depend on the processing

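The calls of C3ar1, C5ar1 and C1qc in phagocytosis against control over the 4 groups stood in all 24 fits with 1 library left out and under DESeq2, its size factors, no filter, length-scaled counts and the replicate block. C3 was called in these fits too (4 to 4 of the 9 genes with 1 library left out), but from few reads, and is not counted as support. Without the 3 satellite-rich controls 1 call remained, C3ar1. The number of all genes called was 781 (without female WT control 2) to 1508 with 1 library left out, 410 without the satellite-rich controls and 782 with phagocytosis libraries 3 and 4 alone, against 1332. Within the 4 groups 193 calls were made: 704 without the filter, 625 with the replicate block, 346 with only the 2 groups compared, 609 by DESeq2, 51 without the satellite-rich controls, 685 with phagocytosis libraries 1 and 2, and 121 to 269 with 1 library left out (lowest without either male NL4-/- control, 121 and 128). For the 9 genes these 3 calls became 6 without the filter, 7 by DESeq2, 0 without the satellite-rich controls, 6 with phagocytosis libraries 1 and 2, and 1 to 3 with 1 library left out (1 without either male NL4-/- control).

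For NL4-/- against WT 0 genes were called: 85 without the filter, 1 with length-scaled counts, 16 by DESeq2, 1 without the satellite-rich controls, 18 with phagocytosis libraries 3 and 4, 6 with 1 and 2, and 0 to 3 with 1 library left out. For female against male 11 became 112 without the filter, 38 by DESeq2, 23 with phagocytosis libraries 3 and 4, and 9 to 16 with 1 library left out. For the interactions 0 became 14 without the filter, 8 by DESeq2, 1 without the satellite-rich controls, 5 with phagocytosis libraries 3 and 4, 6 with 1 and 2, and 0 to 3 with 1 library left out. The cause of these changes was not tested; none of the 9 genes was called in genotype, sex or interaction comparisons under any of these settings.

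Some log2 fold changes that had not passed turned sign, those of C1qc from 0.71 within female NL4-/- mice, 0.45 in females against males and -0.29 in NL4-/- against WT. Phagocytosis libraries 3 and 4 hold the low C1qc values of female NL4-/- mice and were chosen after these were seen. With phagocytosis libraries 3 and 4 they were 0.0379 for C1qa, 0.0898 for C1qb, -0.20 for C1qc in female NL4-/- mice, 0.0168 for C5ar1 in male WT mice and -0.17 for C1qc in females against males. Without the satellite-rich controls they were -0.25 for C4b, -0.0856 for Itgb2, -0.0794 for Lrp1 and 0.0544 for C5ar1 in male WT mice. Lrp1 was at -0.029 with the replicate block, C5ar1 in male WT mice at 0.10 with length-scaled counts, and C1qc in NL4-/- against WT at 0.0401 with phagocytosis libraries 1 and 2. With 1 library left out the ranges were -0.145 to 0.0014 for C1qa, -0.0765 to 0.0389 for C1qb, -0.0349 to 0.294 for C4b, -0.0125 to 0.108 for Itgb2, -0.0104 to 0.137 for Lrp1 and -0.187 to 0.0581 for C5ar1 in male WT mice.

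Phagocytosis libraries with the same number in different groups did not deviate together (correlation -0.101 to 0.176, median 0.015, against a median of -0.00414 for other numbers). Controls were not compared in this way, and whether the numbers mark a shared batch was not tested. With the replicate block 1646 genes were called in phagocytosis against control, against 1332 without it. On TPM the median gene had a log2 ratio, phagocytosis over control, of 0.35, against -0.02 on TMM CPM (9791 genes); C1qa (0.13) and C1qb (0.20) were positive on that scale but below its median, and C3ar1 was 1.55. With phagocytosis libraries 3 and 4 alone C3 gave no value, because it did not pass the filter. Depth limits C3 most, and C4b with 160 control reads in all; 2 controls a group limit every within-group call.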

Other observations

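C5ar2, the second receptor for C5a, had reads in 3 of the 8 groups: 54 reads in female NL4-/- phagocytosis, 67 in female NL4-/- control and 115 in male WT phagocytosis libraries. The other 5 groups had 0 reads. At equal depth the ratio, phagocytosis over control, was 0.336 in female NL4-/- mice (exact 95% interval for counting error only, 0.23 to 0.488). In male WT mice it was 14.1 against a floor of 3 reads over the control group, with an exact lower 95% limit of 11.2. Over all libraries the ratio was 1.09 (0.814 to 1.46), an average over pooled reads that differed in direction between groups. How these reads were spread over the libraries of a group is not given here, and the intervals do not cover that spread. Neither difference passed the test, with adjusted p = 0.895 in female NL4-/- mice and 0.793 in male WT mice (edgeR). C5ar2 was chosen after its values were seen.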
